A study of Mus musculus with 2 samples.

Results

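The ISG15 conjugation system was examined as 5 genes matched by symbol, Isg15, Uba7, Ube2l6, Herc6 and Usp18, and each had a row in both libraries among the 26082 genes tabulated. The libraries were made from primary mouse fibro-adipogenic progenitors (FAPs), the mesenchymal cells of skeletal muscle that can become adipocytes. The genotype was WT in both. One culture received plasmids overexpressing TGFBR3, a coreceptor of the TGF-β family, and the control received the vector. The labels place both under adipogenic differentiation, for which the medium was DMEM with 20% FBS, insulin at 10 μg/ml, dexamethasone at 0.25 μM and IBMX at 0.5 mM. Each condition is 1 library. The study bought young adult C57BL/6 mice. The sources used here give neither the number of mice behind each culture, the promoter of the plasmid, nor the hour of harvest. With 1 library per condition there is no replicate spread, so no difference was tested, no p-value is given and each interval covers counting error only.

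ISG15 is a small protein with paired ubiquitin-like domains, made in large amounts when cells respond to interferon. Like ubiquitin, it is attached to lysines of other proteins by a relay of enzymes. Uba7 is the activating enzyme (E1), Ube2l6 the conjugating enzyme (E2) and Herc6 the main ligase (E3) in mouse cells, where human cells use HERC5. Usp18 is the protease that takes ISG15 off its substrates. Usp18 also binds the interferon receptor subunit Ifnar2 and dampens type I interferon signaling, independently of its protease activity.

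Genes induced by type I interferon are often switched on through the interferon-stimulated response element (ISRE), searched here as a pair of GAAA copies with any 2 bases between them, on either strand. RefSeq promoters of GRCm38.p6, from 250 bases before to 50 after a gene's start, were matched for 4 of the 5 genes (Isg15, Uba7, Ube2l6 and Herc6, not Usp18). The stretches that follow are shown because these genes stood higher together. They are the 150 bases up to the start site, except for Uba7, whose stretch stops 62 bases short of it, where an annotated exon begins. Capitals mark every GAAA, or TTTC on the other strand.
Isg15, chr4:156200819-156200968, minus strand: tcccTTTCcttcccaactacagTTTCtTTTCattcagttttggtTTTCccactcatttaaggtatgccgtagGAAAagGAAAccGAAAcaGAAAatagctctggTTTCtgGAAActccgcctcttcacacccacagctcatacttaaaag
Uba7, chr9:107975355-107975504, plus strand: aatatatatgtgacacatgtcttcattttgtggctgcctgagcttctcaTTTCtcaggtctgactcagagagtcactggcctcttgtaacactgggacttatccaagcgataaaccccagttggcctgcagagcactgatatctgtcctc
Ube2l6, chr2:84798678-84798827, plus strand: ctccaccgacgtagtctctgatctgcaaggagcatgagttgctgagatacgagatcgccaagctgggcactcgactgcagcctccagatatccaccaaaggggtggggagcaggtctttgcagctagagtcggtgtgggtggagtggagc
Herc6, chr6:57580842-57580991, plus strand: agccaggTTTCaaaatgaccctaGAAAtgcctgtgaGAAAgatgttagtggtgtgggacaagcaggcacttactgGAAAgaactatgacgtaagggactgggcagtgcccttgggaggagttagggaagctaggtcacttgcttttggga

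In the Isg15 promoter, 4 copies of GAAA stood in a row with 2 bases between neighbors, which gave 3 overlapping ISRE matches from 78 to 57 bases before the start site. No match was found in the 300-base windows of Uba7, Ube2l6 and Herc6, although those of Uba7 and Herc6 each held 6 single copies of GAAA or TTTC. The window of Ube2l6 held none. Of all 32851 promoters in the table, 3.44% held an ISRE match. The gamma-activated sequence (GAS), searched as TTC and GAA with any 3 bases between them, was in 8.30% of all promoters and in none of these 4. A match is a description of the letters, and its absence concerns only these letters in this window.

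Tgfbr3, the gene carried by the plasmid, checks the labels. In FPKM, a unit that divides the reads of a gene by its length and by the library total, it was at 36.9 under the label TGFBR3 overexpression and at 35.1 under the label vector control (16372 and 21245 counts). Changes are given as the log2 ratio of (FPKM + 1), overexpression over control, which understates the change of low genes. For Tgfbr3 this was 0.07 (95% CI 0.04 to 0.10), below the median of 0.14 over the 11213 genes whose mean FPKM reached 1. The gene did not stand out, so the libraries are called by their labels throughout. The study also measured TGFBR3 by real-time PCR in FAPs given overexpression plasmids or vectors, a measurement that was not examined here. Counts summed to 62321027 and 83779203. Of 7 FAP markers, 5 reached an FPKM of 1, led by Ly6a at 1013 and 706, Col3a1 was 2-fold lower at 95.8 against 199, and Dpp4 and Pi16 stayed at or under 0.08. The 9 macrophage markers summed to an FPKM of 0.91 and 0.54, with Adgre1, Tyrobp and Fcer1g at 0 counts in both. The 2 markers of T or NK cells and the 3 of dendritic cells that were tabulated summed to 0.11 and 0.24 in the control, against 0.19 and 0.15 under the label TGFBR3 overexpression. Adipocyte markers summed to 22.2 there and to 54.0 in the control. The part of these marker differences in the results that follow was not tested. In bulk RNA, a change in the share of cells and a change in RNA per cell cannot be told apart.

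All 5 genes stood higher in the library labelled TGFBR3 overexpression, 4 of them at least 2-fold. Among the 11213 genes whose mean FPKM reached 1, 63.1% were higher and 3.14% at least 2-fold higher. Usp18, the protease, had the largest log2 ratio of (FPKM + 1), followed by the ligase Herc6 and by Isg15 itself. Under other settings Herc6 was the largest, or fell below Isg15. The E2 gene Ube2l6 was just past 2-fold and the E1 gene Uba7 was short of it. Together the 5 genes took 74857 counts, 0.120% of the library labelled TGFBR3 overexpression, against 25843 counts and 0.0308% of the control, a share 3.89-fold higher.

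Isg15 (ENSMUSG00000035692), the modifier, has 2 exons on the minus strand of chromosome 4 (mm10, 156199424 to 156200818). It reached an FPKM of 515 under the label TGFBR3 overexpression, against 121 in the control, with 24570 and 7863 counts. It was the most abundant of the 5 in both libraries. By level it moved from rank 394 to rank 71 of all 26082 genes. The difference was 4.26-fold, a log2 ratio of 2.08 (95% CI 2.04 to 2.12).

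Uba7 (ENSMUSG00000032596), the E1 enzyme that forms the first thioester with ISG15, lies on chromosome 9 from 107975505 to 107984060 on the plus strand, and its longest transcript has 22 exons. Its FPKM was 6.94 against 3.88, from 3160 and 2406 counts. It had the smallest difference of the 5, 1.79-fold, with a log2 ratio of 0.70 (95% CI 0.64 to 0.77). Its rank by log2 ratio was 1018 of all genes, where the other 4 lay at ranks from 40 to 305. Of its exon bases, 233 are shared with the predicted gene Gm20661, which had 34 and 8 counts.

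Ube2l6 (ENSMUSG00000027078), the E2 enzyme, which can also carry ubiquitin, lies on chromosome 2 from 84798828 to 84810335 on the plus strand, with 4 exons in its longest transcript. Its FPKM was 111 against 51.5, from 15020 and 9506 counts. It was abundant already in the control, where only Isg15 stood above it among the 5. The difference was 2.15-fold and the log2 ratio 1.09 (95% CI 1.05 to 1.13). It was 0.94 when centred on the median gene, 0.97 after removal of the GC trend, 0.88 with TMM scaling of the counts and 0.85 with median-of-ratios scaling, each short of 2-fold.

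Herc6 (ENSMUSG00000029798), the E3 ligase of the HERC family, lies on chromosome 6 from 57581000 to 57664632 on the plus strand, with 23 exons in its longest transcript. Its FPKM was 8.15 against 1.06, from 5137 and 910 counts. It was the scarcest of the 5 in the control and passed Uba7 in the other library. The difference was 7.69-fold without the added 1, the largest of the 5 by that measure, and the log2 ratio of (FPKM + 1) was 2.15 (95% CI 2.09 to 2.21). The GC content of its exons was low, at 39.4%, and after removal of the GC trend the log2 ratio was 1.73. Of its exon bases, 1269 are shared with the predicted gene Gm45193, which was at 0 counts in both libraries.

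Usp18 (ENSMUSG00000030107), the ISG15 protease, lies on chromosome 6 from 121245906 to 121270917 on the plus strand, with 11 exons in its longest transcript. Its FPKM was 142 against 20.0, from 26970 and 5158 counts. In the library labelled TGFBR3 overexpression it passed Ube2l6 to become the next most abundant gene of the system after Isg15. The difference was 7.12-fold, with a log2 ratio of 2.77 (95% CI 2.73 to 2.81), which is rank 40 of all genes. None of its 31-base words occurred in transcripts of other genes, while for the other 4 the share was from 2.89% in Uba7 to 13.8% in Herc6.

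**Figure D1:**
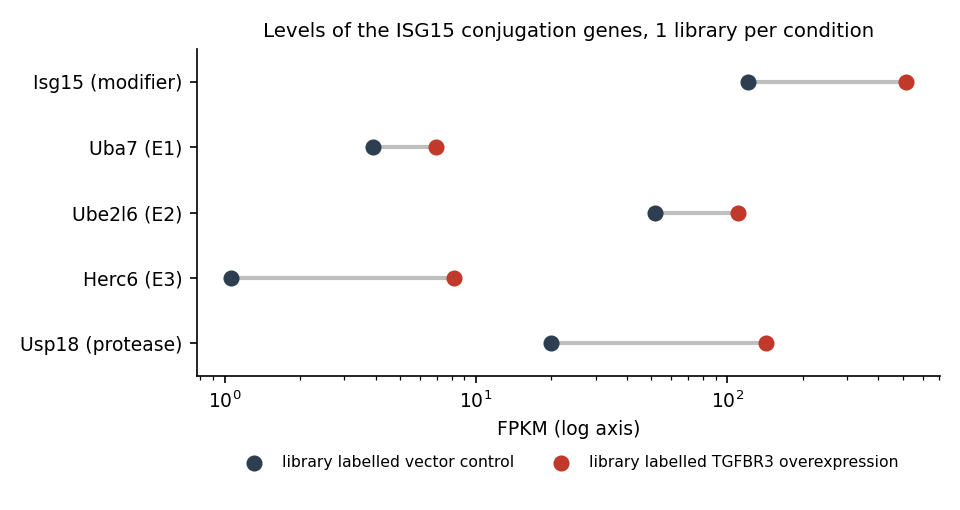
FPKM on a log axis of the 5 genes in the library labelled vector control (dark) and the library labelled TGFBR3 overexpression (red), 1 library per condition, with a line joining the values of a gene. Each red point lies to the right of its dark one, from Uba7 at 3.88 and 6.94 to Herc6 at 1.06 and 8.15.

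Isg15, Ube2l6, Herc6 and Usp18, 4 of the 5 genes, reached a log2 ratio of 1, and the counting interval of each lay wholly past it. Over all 26082 genes, 1.41% were at least 2-fold higher and 0.475% at least 2-fold lower. None of the 5 was lower. All 5 had a mean FPKM above 1, and among the 11213 such genes 3.14% were at least 2-fold higher. At a threshold of 1.5-fold all 5 were higher, against 6.46% of all genes, although Uba7 was short of 1.5-fold when centred on the median gene (0.58), with median-of-ratios scaling (0.57) and after removal of the exon length trend (0.50). At 4-fold 3 were higher (Isg15, Herc6 and Usp18), against 0.295%. The shares at 1.5-fold and 4-fold are of all genes, which include low ones whose ratio the added 1 holds near 0. The median log2 ratio of the 5 was 2.08, beside 0.03 over all genes and 0.14 over those whose mean FPKM reached 1. The split of the background depended on scaling. Of the genes past 2-fold, 74.8% were higher as deposited, 59.9% when centred on the median gene, 61.2% after removal of the GC trend, 51.2% with TMM scaling and 47.4% with median-of-ratios scaling. The median gene was itself 0.15 higher on the log2 scale over the 10626 genes that reached an FPKM of 1 in each library. With TMM and median-of-ratios scaling Isg15 was also short of 4-fold, at 1.86 and 1.83, as it was when centred, at 1.93. Herc6 was short of 4-fold after removal of the GC trend, at 1.73, and of the exon length trend, at 1.895.

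**Figure D2:**
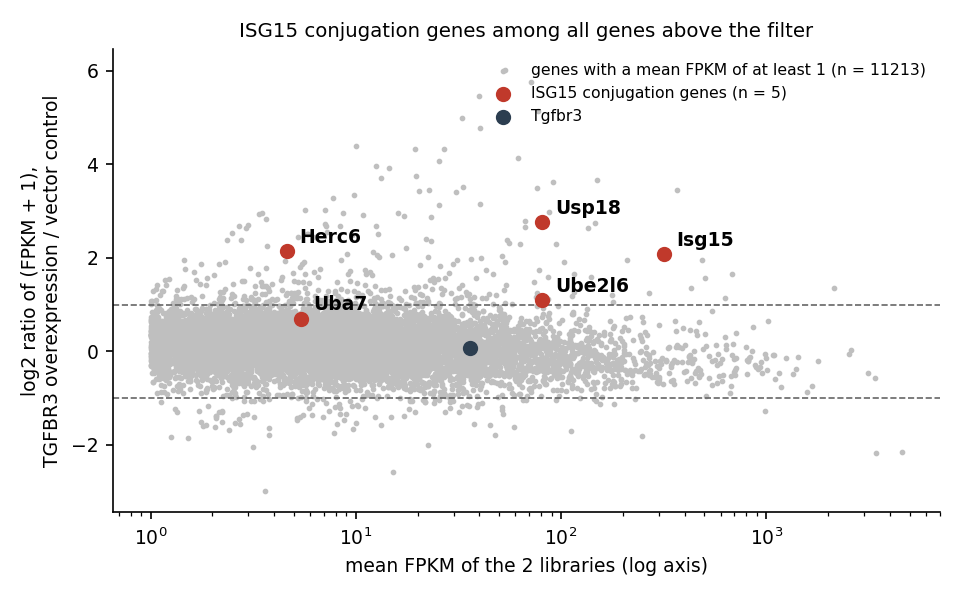
Log2 ratio of (FPKM + 1), overexpression over control, against the mean FPKM of both libraries on a log axis, for the 11213 genes whose mean FPKM reached 1 (gray), the 5 ISG15 conjugation genes (red) and Tgfbr3 (dark). Dashed lines mark 2-fold. Usp18, Herc6 and Isg15 lie well past the upper line, at ranks 40, 69 and 72 of the 11213 genes by log2 ratio. Ube2l6 lies just past that line, and Uba7 and Tgfbr3 lie between the lines.

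The members did not differ by the same factor, so their proportions differed between the libraries. Levels are compared here per length, as FPKM within a library. In the control, the order from high to low was Isg15, Ube2l6, Usp18, Uba7 and Herc6. In the library labelled TGFBR3 overexpression it was Isg15, Usp18, Ube2l6, Herc6 and Uba7. Both changes of proportion were far beyond counting error. Usp18 per Ube2l6 was 0.388 in the control and 1.28 in the other library, a factor of 3.31 (95% CI 3.18 to 3.44). Herc6 per Uba7 was 0.273 and 1.17, a factor of 4.30 (95% CI 3.93 to 4.70). None of the proportions between genes was corrected for the GC trend. The median log2 ratio among genes of like GC content was 0.42 for Herc6 and −0.004 for Uba7. It was 0.12 for Ube2l6 and Usp18 and 0.04 for Isg15. The part of this trend in Herc6 passing Uba7 was not tested.

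Isg15 RNA was higher relative to the enzymes that activate and carry it, and lower relative to the ligase and the protease. Isg15 per Uba7 was 31.2 in the control and 74.2 in the library labelled TGFBR3 overexpression, a factor of 2.38 (95% CI 2.24 to 2.52). Isg15 per Ube2l6 was 2.35 and 4.65, a factor of 1.98 (95% CI 1.91 to 2.05). Isg15 per Herc6 was 114 and 63.2, a factor of 0.554 (95% CI 0.513 to 0.597). Isg15 per Usp18 was 6.05 and 3.62, a factor of 0.598 (95% CI 0.575 to 0.622).

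Herc6 and Usp18 kept nearly the same proportion, with Usp18 at 18.9 times the FPKM of Herc6 in the control and at 17.5 times in the other library. The factor for Herc6 per Usp18 was 1.08 (95% CI 0.9997 to 1.17), so a difference between these genes was not clear of counting error. Their order by log2 ratio depended on the measure, with 2.15 and 2.77 with the added 1 and 2.94 and 2.83 without it. With TMM scaling of the counts the values were 2.62 and 2.59. After removal of the GC trend Herc6 was at 1.73, below Usp18 (2.65) and Isg15 (2.04). The factor was not corrected for the GC trend, which differed between them. The median log2 ratio among genes of like GC content was 0.42 for Herc6 and 0.12 for Usp18. Whether their near-constant proportion would remain after such a correction was not tested. Except for Isg15, FPKM here counts the summed exon length of a gene, which holds exons that few transcripts may use. For Isg15, which has 1 transcript, the FPKM implied a length of 703 bases where the annotation gives 756. With the length of the longest transcript instead, an alternative chosen after the values were seen, the order of the 5 in each library was the same, while Isg15 per enzyme was lower. Isg15 per Uba7 was then 15.6 in the control and 37.2 in the other library, and Isg15 per Herc6 was 54.5 and 30.2. Isg15 per Usp18 was 3.57 and 2.13, and Isg15 per Ube2l6 was 1.71 and 3.38.

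**Figure D3:**
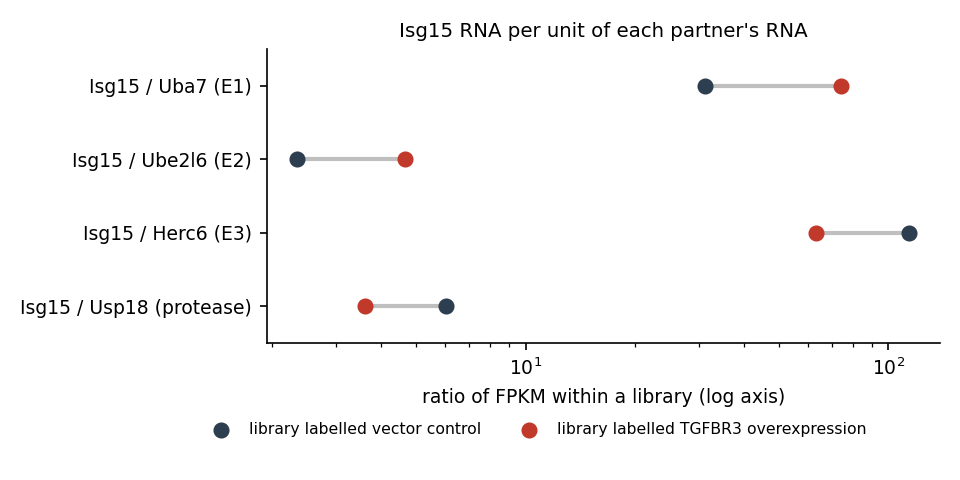
Ratio of the FPKM of Isg15 to that of each enzyme within a library, on a log axis, in the library labelled vector control (dark) and the library labelled TGFBR3 overexpression (red). The ratio to Uba7 and Ube2l6 was higher in the latter (74.2 and 4.65) and the ratio to Herc6 and Usp18 was lower (63.2 and 3.62).

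Each gene of the system has relatives that serve ubiquitin or other modifiers. The medians of the first 3 classes lay near the shift of the median gene, and each turned negative under at least 1 other setting, so no direction is given for those classes. Among 17 other genes of ubiquitin and ubiquitin-like proteins, the median log2 ratio was 0.12, with 3 at least 2-fold higher and none 2-fold lower. The 3 included Oasl1 (3.45, FPKM 42.6 against 2.99) and Oasl2 (1.99, 65.6 against 15.7), which join ubiquitin-like domains to an oligoadenylate synthetase fold. The count was 2 when centred on the median gene and with TMM or median-of-ratios scaling. Ubb, which encodes ubiquitin, was at 733 and 653, a log2 ratio of 0.17 (95% CI 0.15 to 0.18). Per length, Isg15 was at 0.185 of the level of Ubb in the control and at 0.703 in the library labelled TGFBR3 overexpression. Fau, a fusion of a ubiquitin-like and a ribosomal protein, was at −0.55, and Sumo2 was at 0.84.

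The 9 E1 genes of other modifiers had a median of 0.17, and none was 2-fold different. The value of Uba7, 0.70, lay between Uba3 (0.78), the catalytic subunit for NEDD8, and Uba6 (0.68), another E1 of ubiquitin. Without the added 1, Uba6 was at 1.04, past 2-fold and above Uba3 (0.89) and Uba7 (0.84). The number past 2-fold was also 1 with a pseudocount of 0.01. Uba1, the main E1 of ubiquitin, was at 142 and 129, a log2 ratio of 0.14, and stood at 33.4 times the FPKM of Uba7 in the control and at 20.5 times in the other library. With the trend over exon length removed, Uba7 was at 0.50.

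The 33 E2 genes other than Ube2l6 had a median of 0.11 and none was 2-fold different. The highest was Ube2e1 (0.81) and the lowest were Ufc1 (−0.41), the E2 of UFM1, and Ube2g2 (−0.40). Ube2l3, the close relative of Ube2l6 that works with ubiquitin, was at FPKM 36.6 and 28.3, a log2 ratio of 0.36 (95% CI 0.33 to 0.39). Ube2l6 stood at 1.82 times its level in the control and at 3.03 times in the library labelled TGFBR3 overexpression.

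The 4 other genes of the HERC family, whose products are ligases of ubiquitin, had log2 ratios from 0.32 in Herc2 to 0.65 in Herc3, with none past 2-fold. Herc3 was low, at FPKM 1.26 and 0.44, and its ratio without the added 1 was 1.52, which was past 2-fold. Herc6 per Herc3 was 2.41 in the control and 6.47 in the other library.

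Of 50 other genes of the USP family, the largest family of ubiquitin proteases, 1 was at least 2-fold higher and none lower, with a median of 0.36. That gene was Usp25 (1.16, FPKM 17.98 against 7.51). The number past 2-fold was 0 after removal of the GC or the exon length trend, 2 with median-of-ratios scaling, 3 with TMM scaling, 5 with a pseudocount of 0.1, by the plain ratio or with CPM, and 9 with a pseudocount of 0.01. Usp24 (0.87), Usp15 (0.86) and Usp14 (0.83) followed, and Usp53 was at 0.37. Usp50 was at 0.79, from 154 and 0 counts (FPKM 0.73 and 0), a value that depends on the added 1. The plain ratio leaves out such genes, whose FPKM is 0 in a library. The value was above 0 in 44 and below 0 in 3, where 54.7% of all genes were above 0, or 63.1% of those whose mean FPKM reached 1, and 44 of the 50 had more than 3 counts in a library. The median was 0.12 after removal of the GC trend. In the control, 2 USP genes had a higher FPKM than Usp18, led by Usp5 at 39.7. In the library labelled TGFBR3 overexpression, Usp18 at 142 stood above all 50, the next being Usp5 at 37.5.

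**Figure D4:**
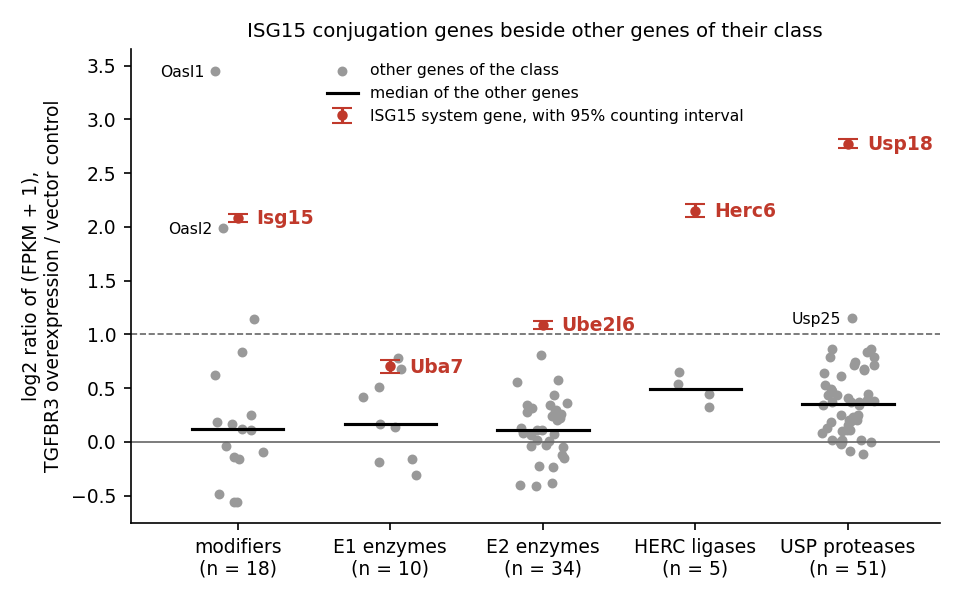
Log2 ratio of (FPKM + 1), overexpression over control, for each ISG15 system gene (red, with its 95% counting interval) beside the other genes of its class (gray) and their median (black line). The dashed line marks 2-fold. By this measure, which includes the added 1, Herc6 and Usp18 lie above every other gene of their class. Ube2l6 lies just above the E2 genes, while Uba7 lies among the E1 genes and Isg15 lies under Oasl1.

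Other proteins are known to ligate ISG15 or to cleave its conjugates beside ubiquitin. Of 9 such genes, 1 was at least 2-fold higher and none lower, with a median of 0.21. It was Trim25, a ligase for both ISG15 and ubiquitin, with FPKM 29.8 against 12.3 and a log2 ratio of 1.21 (95% CI 1.17 to 1.25). Usp14 (0.83) and Arih1, the ligase also called HHARI (0.63), were the next, while Usp5 (−0.08) and Usp21 (−0.11) were near 0.

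Among 6 partners of ISG15 and Usp18, Stat2, the transcription factor that brings Usp18 to the receptor, was the 1 gene at least 2-fold higher, with FPKM 48.5 against 17.6 and a log2 ratio of 1.41. The receptor genes were nearly level, with Ifnar2 at 26.3 and 22.5 (0.22) and Ifnar1 at 12.0 and 11.7 (0.03). Itgal, part of the integrin LFA-1 that binds secreted ISG15, was at 10 and 4 counts. Of the interferon ligands tabulated, Ifna4 had 0 counts in both libraries, which allows up to 0.0481 and 0.0358 CPM, counts scaled by the library total. Ifnb1 had 9 counts against 3, a ratio of shares of 4.03 (95% CI 1.01 to 23.2), with the control at the floor of 3 counts. Ifnz had 56 against 43, a ratio of shares of 1.75 (95% CI 1.16 to 2.67). The genes of the transcription factors that act on the ISRE included Irf7 (3.67, FPKM 279 against 20.98) and Irf9 (0.97). Of 6 such genes 3 were at least 2-fold higher, and Irf3 was lower (−0.54).

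Proteins reported to carry ISG15 were followed through 21 genes. The median log2 ratio was 0.39, and 5 genes were at least 2-fold higher and none lower. The 5 included Mx1 (2.70, from 1520 and 22 counts) and Mx2 (2.69, from 3233 and 402 counts), both antiviral GTPases, and the RNA sensors Ifih1 (1.76) and Ddx58 (1.49). Each of those named is also a gene that interferon is known to induce. The kinase gene Eif2ak2 (0.89) and Ube2e1 (0.81) were higher without reaching 2-fold. Irf3 (−0.54), Mapk3 (−0.44), Ccnd1 (−0.34) and Plcg1 (−0.29) were lower.

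With 2 libraries, likeness between genes is only the closeness of their log2 ratios. Nearest to Isg15 among genes whose mean FPKM reached 1 were Slfn8 (2.08) and Dtx3l (2.07). Nearest to Herc6 were Parp14 (2.13) and Sp100 (2.21), and nearest to Usp18 were H2-Q4 (2.75) and Irgm1 (2.80). Ube2l6 lay beside Erv3 (1.09) and Mitd1 (1.09). Uba7 lay beside the pseudogene Rpl5-ps2 (0.70) and the splicing factor gene Sf3b1 (0.70), in a crowded part of the ranking.

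Across 10 other ways of computing the ratio, Isg15, Herc6 and Usp18 were at least 2-fold higher in 10, Ube2l6 in 6 and Uba7 in none. All 5 were above 0 in each. As reported, 63.1% of the genes whose mean FPKM reached 1 were above 0. The lowest value of Usp18 was 2.56 and that of Isg15 was 1.83, both with median-of-ratios scaling.

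**Figure D5:**
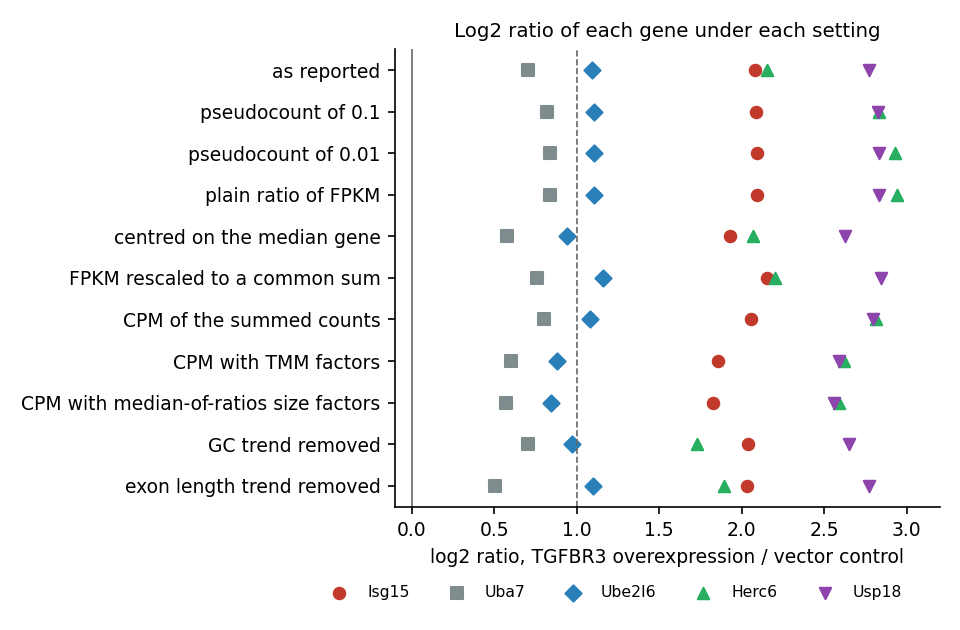
Log2 ratio, overexpression over control, of the 5 genes as reported and under 10 other settings, 1 line per setting, with 0 and 2-fold marked by vertical lines. Uba7 lies left of the 2-fold line throughout, from 0.50 to 0.84, Ube2l6 crosses it, from 0.85 to 1.16, and the other 3 genes lie right of it in every setting.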

How the data were processed

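Per the labels, mRNA of both cultures was captured by oligo(dT), made into stranded libraries and sequenced as paired reads. The build was mm10. The study's methods name STAR and FeatureCounts, whereas the submitters' processing notes list cutadapt 1.9, HISAT2 2.2.1 and StringTie 2.1.6. The annotation is not given in the sources used here. Every gene has an unnormalized count and an FPKM to 2 decimals, both deposited by the authors. The FPKM divides by gene length and library total, so a difference in that total moves all genes together.

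The measure was the log2 ratio of (FPKM + 1), with thresholds of 2-fold, 1.5-fold and 4-fold. Each 95% CI came from the Clopper-Pearson method (exact), applied to how a gene's counts divide between the libraries. For proportions between genes it is the exact conditional interval of the odds ratio. A count of 3 was the floor. Reads that are PCR copies of a molecule are not independent, which these intervals do not take into account. Count models need replicates and none was run. TMM factors came from edgeR 4.0.16. Positions, lengths and GC content came from GENCODE M21 on mm10, where 99.7% of the identifiers were found, and promoters from RefSeq. The protein comparison that was planned was not run. Calculations were tested on simulated data.

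The genes named are the 5 members, Tgfbr3, those of each list past 2-fold with up to 3 more by size, the closest relative of each member, and the 2 genes nearest to each member by log2 ratio. A few list members outside this rule, chosen after their values were seen, are named for their role. Some list members are not reported here. The members, lists and tests were chosen with earlier results of these data known.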

Additional observations from a re-analysis of the deposited data

How the results depend on the processing

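The count of members at least 2-fold higher was 4, and 3 when centred on the median gene, with TMM scaling, with median-of-ratios scaling or with the trend over GC content removed, since Ube2l6 fell short. Their median log2 ratio was 1.93 when centred, 2.15 with FPKM rescaled to a common sum, 1.86 with TMM scaling, 1.83 with median-of-ratios scaling, 1.73 with the GC trend removed and 1.895 with the exon length trend removed. Over all genes, 369 were at least 2-fold higher and 124 lower as reported. These numbers were 2077 and 799 with a pseudocount of 0.1, 4972 and 2763 with 0.01, 2926 and 1080 by the plain ratio, and 638 and 197 with CPM. The number lower was 198 when centred, 372 with TMM scaling and 408 with median-of-ratios scaling, and the number higher was 237 with the GC trend removed. At 1.5-fold they were 1686 and 611, and at 4-fold 77 and 6. Of the lists, the medians of the modifiers, the E1 genes, the E2 genes, the other ISG15 ligases and proteases, the partners and the interferon ligands were negative under at least 1 setting, down to −0.14. No paired analysis was possible because each condition has 1 library, and for the same reason no library could be left out. Depth does not limit the members, which had 910 counts or more, but the spread between cultures is unknown.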
